A study of Mus musculus with 4 samples.

Results

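The genes described here are the switch that turns on Cdk1, with its relatives and brakes: the kinases Cdk1 and Cdk2, the phosphatases Cdc25a, Cdc25b and Cdc25c, the inhibitory kinases Wee1 and Pkmyt1, the polo-like kinase Plk1, and the inhibitors Cdkn1a and Cdkn1b. They were taken by name as a set of 10 genes, with earlier results of these data known. All 10 were among the 20197 genes of the expression table, with 487 to 10453 reads per gene and library. RNA-sequencing had been performed on wild type 4T1 cells, a metastatic mouse breast cancer line that resembles triple negative disease. MitoSpy Red (20 nM), which stains mitochondria the more strongly the higher their membrane potential (MMP) is, was used to sort the brightest 5% as high MMP and the dimmest 5% as low MMP cells, with 2 libraries each. The comparison asks how tumor cells sorted as high in mitochondrial membrane potential differ from cells of the same line sorted as low. The methods of this sort name no correction for mitochondrial mass or cell size. Both groups are fractions of a single cultured line, so they hold no host tissue, and a bulk library cannot tell fewer cells in a given cell cycle phase from less RNA per cell.

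Cdk1 bound to cyclin B drives entry into mitosis, while Cdk2 acts with cyclins E and A around DNA replication. Wee1 and Pkmyt1 (Myt1) hold Cdk1 inactive by phosphorylating it, and the CDC25 phosphatases remove these phosphates. Plk1 promotes the switch by activating Cdc25c and marking Wee1 for destruction, and p21 (Cdkn1a) and p27 (Cdkn1b) block CDK complexes directly. Much of this control works through phosphorylation and protein turnover, which RNA levels do not show.

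In high MMP cells, the transcripts of Cdc25b, Cdk1 and Plk1 were higher than in low MMP cells, at 2.04, 1.83 and 1.55 times the low MMP mean. Those of Cdk2 and Cdc25a were lower, with low MMP means 1.42 and 1.30 times the high MMP ones. Wee1, Cdkn1a and Cdkn1b lay closest to equal levels. With 2 libraries per group, no gene of the table passed the limma test after adjustment for all genes, so these differences are given with their error and not as calls.

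The promoters of the 5 members with the largest differences are shown because transcripts of the CDK1 switch are known to be controlled at the promoter through cell cycle elements. RefSeq promoters on GRCm38.p6 matched 7 of the 10 members with 8 promoters in all (Cdkn1a has a pair), and Cdc25c, Wee1 and Pkmyt1 had no entry. Each line holds the 150 bases before the RefSeq start site, 5′ to 3′ on the gene's strand. Capitals mark the letters of 3 motifs searched on both strands over 250 bases before the start: the cell cycle genes homology region or CHR (TTTGAA or TTCGAA), the CCAAT box (CCAAT, read ATTGG on the other strand), and E2F sites (TTTGGCGC, TTTCCCGC, TTTCGCGC or TTTGCCGC). The windows are chr10:69352913-69353062 (minus strand) for Cdk1, chr7:122159285-122159434 (plus) for Plk1, chr2:131186798-131186947 (plus) for Cdc25b, chr10:128705052-128705201 (minus) for Cdk2 and chr9:109875429-109875578 (plus) for Cdc25a.
Cdk1: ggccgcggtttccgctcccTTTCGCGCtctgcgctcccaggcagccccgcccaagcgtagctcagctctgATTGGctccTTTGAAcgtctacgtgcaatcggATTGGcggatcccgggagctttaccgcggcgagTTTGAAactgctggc
Plk1: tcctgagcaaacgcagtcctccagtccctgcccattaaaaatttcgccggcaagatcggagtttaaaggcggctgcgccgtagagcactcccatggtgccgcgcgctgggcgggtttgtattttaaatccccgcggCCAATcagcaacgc
Cdc25b: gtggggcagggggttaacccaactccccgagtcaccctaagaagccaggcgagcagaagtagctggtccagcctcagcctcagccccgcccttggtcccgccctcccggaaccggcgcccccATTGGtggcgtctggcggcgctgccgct
Cdk2: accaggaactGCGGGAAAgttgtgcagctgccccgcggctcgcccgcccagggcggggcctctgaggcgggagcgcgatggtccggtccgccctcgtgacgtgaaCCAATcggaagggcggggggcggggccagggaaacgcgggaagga
Cdc25a: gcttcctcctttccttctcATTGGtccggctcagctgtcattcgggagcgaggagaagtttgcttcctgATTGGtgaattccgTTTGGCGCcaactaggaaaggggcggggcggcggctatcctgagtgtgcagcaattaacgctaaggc

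CHR letters were found in 17.1% of the 32851 mouse promoters searched in the same way, CCAAT in 33.8% and the E2F letters in 1.9%. The Cdk1 promoter held 2 CHR matches, from -71 to -66 and from -15 to -10 relative to the start, besides 3 CCAAT matches and 1 E2F match. Plk1 and Cdc25b each held 1 CCAAT match and no CHR or E2F match. Cdk2 and Cdc25a, which were lower in high MMP cells (as was Pkmyt1, with no entry), each held 1 E2F match. These lay at -140 to -133 and at -67 to -60. Cdk2 also held 1 CCAAT match and Cdc25a 2. Cdkn1b held 2 CCAAT matches, and neither promoter of Cdkn1a held any of these letters. No matches overlapped one another. A match is a run of letters and was not tested for binding, and its absence says only that these letters are not in the window.

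**Figure D1:**
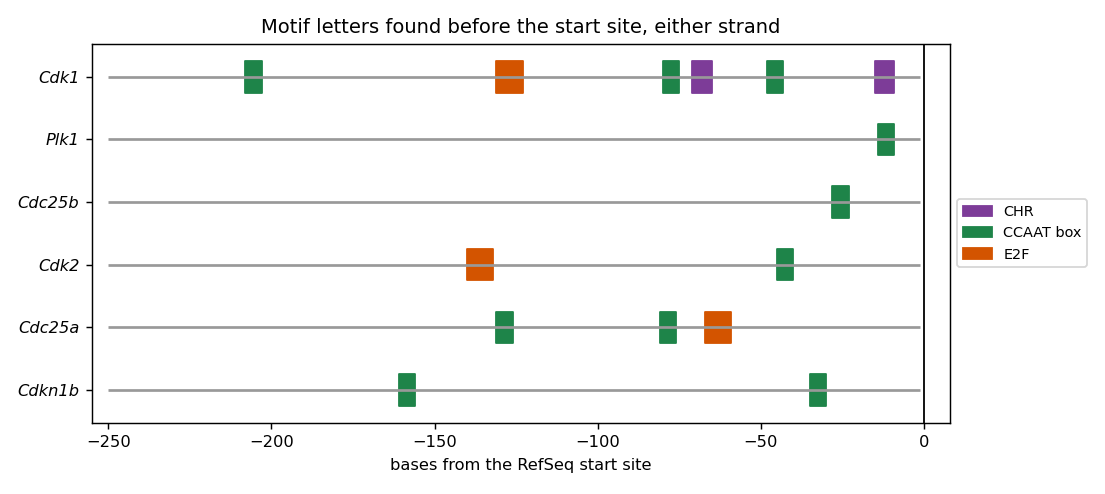
Positions of CHR, CCAAT and E2F letters in the 250 bases before the RefSeq start site of the 6 members with a match, in bases from the start. Only Cdk1 carries CHR letters among them, and E2F letters are seen in Cdk1, Cdk2 and Cdc25a.

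The depth behind these values was 22591970 to 26395015 reads per library, and 18643 to 18854 genes were above 0 in each. The epithelial markers Epcam, Krt8, Krt18 and Cdh1 summed to between 34659 and 47051 normalized reads. Of the leukocyte markers Ptprc had 0 to 2 reads and Cd68 79 to 171 reads per library, and Cd3e and Lyz2 were not in the table. The endothelial markers Pecam1 and Cdh5 had 0 to 7 reads. Of the fibroblast markers, Col1a1 and Dcn had 2 to 39 reads, while Pdgfra was at 319 and 363 normalized reads in high MMP and 536 and 589 in low MMP cells. The fibroblast sum therefore ranged from 334 to 397 in high and from 572 to 620 in low MMP cells. The part of this difference in the results below was not tested.

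Levels are given below as normalized reads, where every library is scaled to the same total, and a difference is the high MMP mean minus the low MMP mean of log2(value + 1). The error of a difference is limma's standard error (SE), and coordinates are those of GENCODE genes on GRCm38. Adjusted p-values are from limma with the Benjamini-Hochberg method over all 20197 genes. The study counts its samples of this comparison as independent experiments or tumors, while the labels tie no sample to a culture or day. The p-values measure the spread between these samples.

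Cdk1 (ENSMUSG00000019942, chr10:69335146-69352938, minus strand), the kinase that drives mitosis, was at 7920.4 and 7188 normalized reads in high MMP replicates 1 and 2, and at 3627 and 4642 in low MMP replicates 1 and 2. Both high MMP libraries lay well above both low MMP libraries. The means were 7554 ± 518 and 4134 ± 718 (SD, n = 2 each), and the log2 difference was 0.88 (SE 0.15, 95% interval 0.46 to 1.30, limma adjusted p = 0.472). Of the 9999 genes whose mean reached 100, Cdk1 ranked 27 from the top by this difference.

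Cdk2 (ENSMUSG00000025358, chr10:128697939-128705031, minus strand), the kinase of the G1 to S transition, lay the other way. It was at 1268 and 1454 normalized reads in high MMP and at 1923 and 1946 in low MMP libraries. The low MMP libraries were nearly equal, and both exceeded the high MMP ones. The means were 1361 ± 132 and 1934 ± 16.1 (SD, n = 2 each). They differed by -0.51 on the log2 scale (SE 0.10, interval -0.78 to -0.24, limma adjusted p = 0.472), and Cdk2 ranked 172 from the bottom of the 9999 genes.

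The 3 CDC25 phosphatases did not share a direction. Cdc25b (ENSMUSG00000027330, chr2:131186949-131198497, plus strand), which acts at the start of mitosis, was at 1986 and 2441 normalized reads in high MMP and at 1037 and 1129.6 in low MMP libraries. Every high MMP library was far above every low MMP one. With means of 2214 ± 322 and 1084 ± 65.2 (SD, n = 2 each), its log2 difference of 1.02 (SE 0.13, interval 0.67 to 1.38, limma adjusted p = 0.472) was the largest of the 10 genes and ranked 14 from the top of the 9999.

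Cdc25a (ENSMUSG00000032477, chr9:109875579-109893895, plus strand), which also activates Cdk2 before DNA replication, was at 1806 and 1627 normalized reads in high MMP and at 2055 and 2408 in low MMP libraries. The groups did not overlap, and low MMP was the higher. The means were 1716 ± 126 and 2231 ± 250 (SD, n = 2 each), with a log2 difference of -0.38 (SE 0.12, interval -0.70 to -0.05, limma adjusted p = 0.472). Cdc25c (ENSMUSG00000044201, chr18:34732993-34751533, minus strand), the phosphatase activated by Plk1, was at 749 and 781 normalized reads in high MMP and at 602 and 666 in low MMP libraries. Its high MMP libraries were above its low MMP libraries by a small step, with means of 765 ± 22.7 and 634 ± 44.8 (SD, n = 2 each). The log2 difference was 0.27 (SE 0.09, interval 0.02 to 0.52, limma adjusted p = 0.472).

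The inhibitory kinases opposed by CDC25 also pointed apart, and neither interval left out 0. Wee1 (ENSMUSG00000031016, chr7:110122046-110143286, plus strand), the nuclear inhibitory kinase, was at 996 and 1022 normalized reads in high MMP and at 806 and 977 in low MMP libraries. The second low MMP library was close to the high MMP ones and the first was not. The log2 difference was 0.19 (SE 0.12, interval -0.14 to 0.51, limma adjusted p = 0.732), and it was 0.05 without low MMP replicate 1 and 0.32 without low MMP replicate 2. Pkmyt1 (ENSMUSG00000023908, chr17:23726336-23736735, plus strand), its relative at the endoplasmic reticulum and Golgi membranes, was at 849 and 1145 normalized reads in high MMP and at 1221 and 1316 in low MMP libraries. On the log2 scale its high MMP replicates were further apart than those of any other member. The log2 difference was -0.36 (SE 0.17, interval -0.82 to 0.10, limma adjusted p = 0.613), and it was -0.15 without high MMP replicate 1 and -0.58 without high MMP replicate 2.

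Plk1 (ENSMUSG00000030867, chr7:122159439-122169873, plus strand), the mitotic polo-like kinase, had close replicates beside a large difference. It was at 4509 and 4543 normalized reads in high MMP and at 2856 and 2995 in low MMP libraries. Replicates lay 0.01 and 0.07 apart on the log2 scale, and the groups were far from overlapping. The means were 4526 ± 24.0 and 2925 ± 98.3 (SD, n = 2 each), with a log2 difference of 0.63 (SE 0.08, interval 0.42 to 0.84, limma adjusted p = 0.472) that ranked 72 from the top of the 9999 genes.

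The 2 CDK inhibitors differed little between the groups. Cdkn1a (ENSMUSG00000023067, chr17:29090976-29100727, plus strand), which encodes p21, a target of p53, was at 524 and 551 normalized reads in high MMP and at 529 and 431 in low MMP libraries. It was the only member whose groups overlapped. The log2 difference of 0.17 (SE 0.13, interval -0.19 to 0.53, limma adjusted p = 0.783) was 0.32 without low MMP replicate 1 and 0.02 without low MMP replicate 2. Cdkn1b (ENSMUSG00000003031, chr6:134920401-134925513, plus strand), which encodes p27, was at 2432 and 2411 normalized reads in high MMP and at 2238 and 2145 in low MMP libraries. Its groups did not overlap, but the step was small, at 0.14 (SE 0.07, interval -0.06 to 0.35, limma adjusted p = 0.661).

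**Figure D2:**
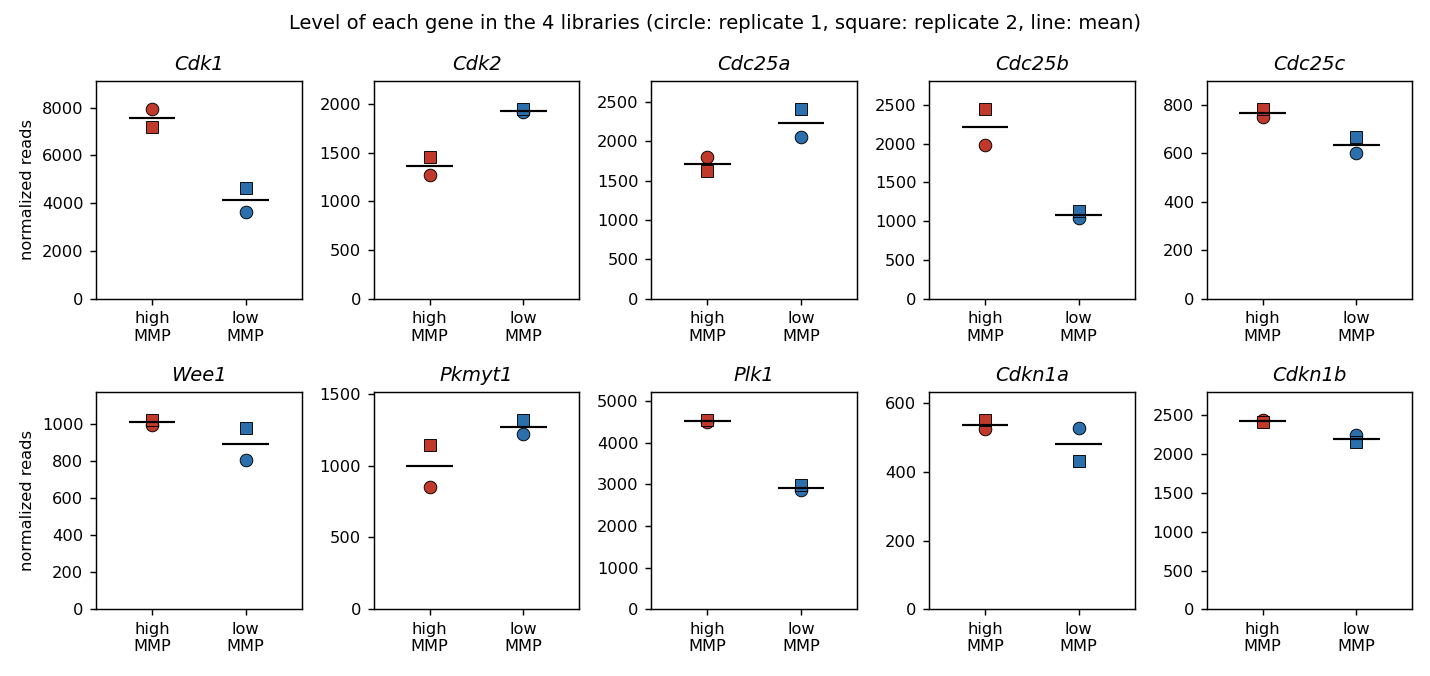
Normalized reads of each of the 10 members in the 4 libraries, with circles for replicate 1, squares for replicate 2 and a line at the group mean, on axes that start at 0. Cdk1, Cdc25b and Plk1 are higher and Cdk2 and Cdc25a lower in both high MMP libraries, and only Cdkn1a overlaps.

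Read across the set, 7 members were higher and 3 lower in high MMP cells. limma called 0 of the 10 and 0% of all genes at an adjusted p under 0.05. At an unadjusted p under 0.05 it marked 6 members and 9.96% of all genes. These were 4 higher members (Cdk1, Cdc25b, Cdc25c and Plk1) where 3.95% of all genes were marked as higher, and 2 lower members (Cdk2 and Cdc25a) where 6.01% of all genes were marked as lower. edgeR on the recovered reads, without a replicate block, also called 0 members and 0% of all genes at an adjusted p under 0.05, with 6 members and 1423 genes in all at an unadjusted p under 0.05. DESeq2 on the same reads called 3 members and 0.985% of the genes it gave an adjusted p. These were Cdc25b (adjusted p = 8.66e-08), Cdk1 (1.35e-05) and Plk1 (0.000679), so whether these 3 pass depends on the test.

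The groups did not overlap for 9 members. High MMP was above low MMP for 6 of them, where 13.5% of all genes showed this, and below it for 3, where 24.5% of all genes did. The median log2 difference was 0.18 over the members and -0.04 over all genes. The median size of the difference, regardless of sign, was 0.37 over the members and 0.11 over the 9999 genes whose mean reached 100. The members were chosen with earlier results of these data known. The comparisons with all genes, here and above, are therefore a description and not a test of the set. An exact permutation test of 2 against 2 libraries cannot go below p = 0.33, so none was used.

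**Figure D3:**
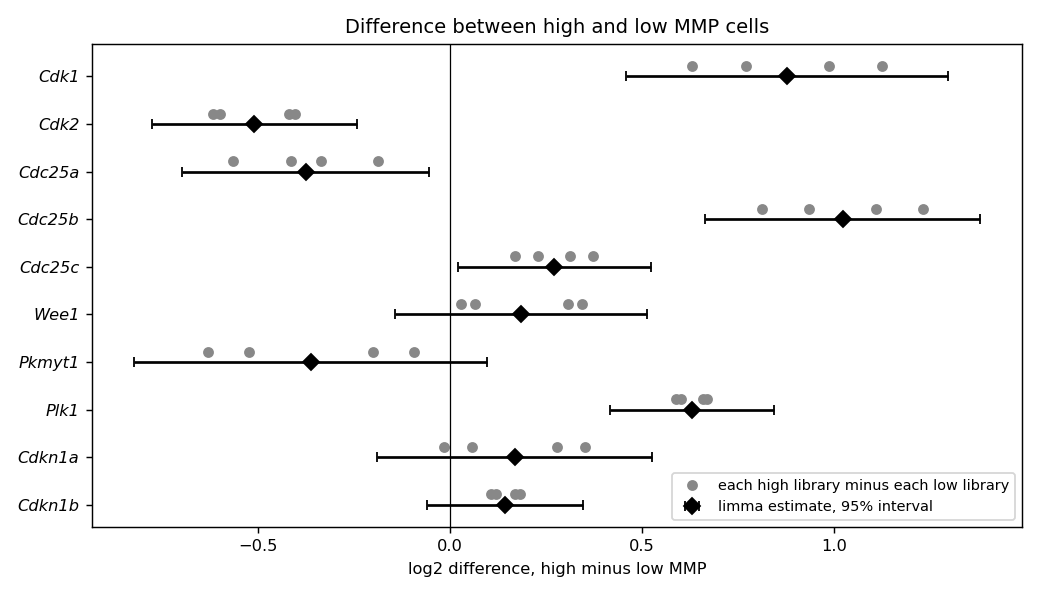
Log2 difference of each member, high minus low MMP, as limma's estimate with its 95% interval (diamond and bar) and as each high MMP library minus each low MMP library (grey points). The intervals of Cdk1, Cdc25b, Cdc25c and Plk1 lie above 0 and those of Cdk2 and Cdc25a below it.

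Ratios of 2 members within a library do not depend on how the libraries were scaled, and they were compared as values without a test. High MMP libraries had 6.24 and 4.94 Cdk1 reads per Cdk2 read and low MMP libraries 1.89 and 2.39, a 2.62-fold difference of geometric means. The ratio of the early to the mitotic phosphatase lay the other way. Cdc25a to Cdc25b was 0.909 and 0.666 in high MMP and 1.98 and 2.13 in low MMP libraries, a 2.64-fold difference. These ratios are of reads, not of reads per length, so they compare libraries and not the levels of the paired genes.

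Against Wee1, which acts against them, the activators were not moved alike. Cdc25b to Wee1 was 1.99 and 2.39 in high MMP and 1.29 and 1.16 in low MMP libraries. Plk1 to Wee1 was 4.53 and 4.45 against 3.55 and 3.06. Cdc25c to Wee1 was nearly flat, at 0.751 and 0.764 in high MMP and 0.748 and 0.681 in low MMP libraries. Pkmyt1 to Wee1, the ratio of the inhibitory kinases, was 0.852 and 1.12 in high MMP and 1.52 and 1.35 in low MMP libraries. Cdk1 to Cdkn1a was 15.1 and 13.1 against 6.85 and 10.8. Cdkn1a to Cdkn1b was the single ratio of the 8 whose groups overlapped, at 0.215 and 0.228 in high MMP and 0.236 and 0.201 in low MMP libraries.

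**Figure D4:**
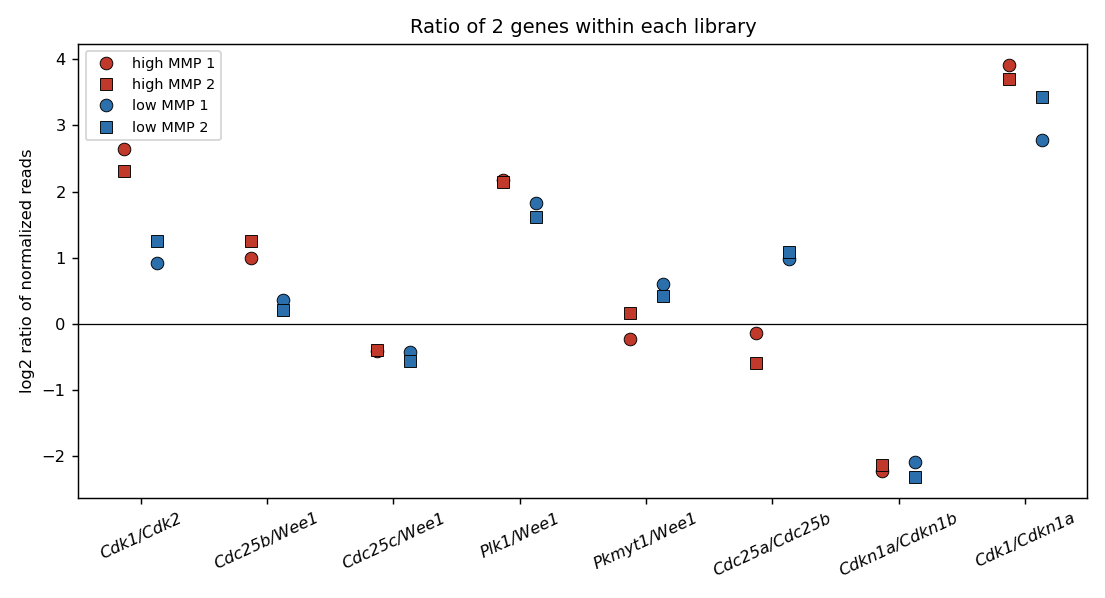
Log2 ratio of normalized reads of 2 members in each library for 8 ratios, high MMP in red and low MMP in blue. Cdk1/Cdk2 and Cdc25a/Cdc25b separate the groups most, in opposite directions, and Cdkn1a/Cdkn1b overlaps.

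To compare levels between genes, normalized reads were divided by the exon length of the gene in kilobases. In high MMP cells the order was Plk1 (2058), Cdk1 (1531), Cdc25b (594), Cdkn1b (532), Wee1 (295), Pkmyt1 (274), Cdk2 (219), Cdc25a (214), Cdc25c (155) and Cdkn1a (151 reads per kilobase). The libraries of Cdc25b and Cdkn1b overlapped, as did those of Wee1 and Pkmyt1, Pkmyt1 and Cdk2, Cdk2 and Cdc25a, and Cdc25c and Cdkn1a, so these neighbours were not separated. In low MMP cells Plk1 (1330.3) and Cdk1 (838) again led, followed by Cdkn1b (481), Pkmyt1 (348), Cdk2 (311), Cdc25b (291), Cdc25a (278), Wee1 (261), Cdkn1a (135) and Cdc25c (129 reads per kilobase). Here Cdc25b overlapped with Cdc25a, Cdc25a with Wee1, and Cdkn1a with Cdc25c. Cdc25b thus lay level with Cdkn1b in high MMP cells, and below Cdkn1b, Pkmyt1 and Cdk2 in low MMP cells. These levels rest on all annotated exons of a gene, and a shorter dominant transcript would raise them.

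The other genes of the pathway were taken from 10 lists by role, with 62 genes of which 56 were in the table and 55 had a mean of at least 10. limma, and edgeR without a replicate block, called 0 of the 56. At an unadjusted p under 0.05 limma marked 14 of the 55 (9.96% of all genes were marked). DESeq2 called 8 of the 56 (0.985% of all genes it tested were called). Of the 55, 39 were higher and 16 lower in high MMP cells, with a median log2 difference of 0.08 and a range from -0.91 to 0.99. Of all 12902 genes with such a mean, 41.9% were higher, and their median was -0.03. The lists were also chosen with earlier results of these data known, so this comparison too is a description. In each list the 2 genes with the largest difference are given below.

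Among the cyclin partners of Cdk1 and Cdk2, 2 were higher and 3 lower (median -0.13), and DESeq2 called 2 of 5. Ccnb1, the cyclin B of the mitotic kinase, was at 5351 and 5764 normalized reads in high MMP and at 2675 and 2914 in low MMP libraries, a log2 difference of 0.99 (SE 0.09). Ccne2, a cyclin E that partners Cdk2, was at 550.1 and 493 against 948 and 1009, a log2 difference of -0.91 (SE 0.10). Both were called by DESeq2, with adjusted p-values of 1.70e-09 and 0.000204. The other cyclin B, Ccnb2, was lower, at 2982 and 2605 against 3039 and 3081 (log2 difference -0.13), and Ccna2, a cyclin A, was higher, at 7321 and 7406 against 5685 and 6095 (log2 difference 0.32). Ccne1 differed by -0.33.

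The CDK-activating kinase and Cks subunits (4 higher, 1 lower, median 0.08) held Cks2, a small subunit that binds CDKs, at 0.47, and Mnat1, an assembly factor of the activating kinase, at 0.09. The G1 kinases Cdk6 (0.13) and Cdk4 (-0.04) were near equal between the groups. DESeq2 called none of these 7 genes.

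All 4 Plk1 activators and other polo-like kinases were higher (median 0.44), and DESeq2 called Aurka and Plk2. The groups did not overlap for 3 of the 4, where 13.5% of all genes were higher without overlap. Aurka, the kinase that activates Plk1, was at 2892 and 2902 normalized reads in high MMP and at 1429 and 1502 in low MMP libraries, a log2 difference of 0.98 (SE 0.08, DESeq2 adjusted p = 4.36e-09). Plk2, a polo-like kinase of interphase and stress, was at 4416 and 4027 against 2847 and 3094 (log2 difference 0.51, SE 0.10, DESeq2 adjusted p = 0.0283). The list of the Greatwall arm and of PP2A-B55, the phosphatase that opposes Cdk1 and that this arm restrains, had 4 higher and 1 lower (median 0.10) and no DESeq2 call. The lower gene was Ppp2r2d (-0.03), a subunit of the phosphatase, and its groups overlapped. Ppp2r2a, another subunit, differed by 0.10 with groups that did not overlap. Mastl, the Greatwall kinase itself, differed by 0.40 and its substrate Arpp19 by 0.11.

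Of the list of other CDK inhibitors and the CDK phosphatase Cdkn3, 3 genes had a mean of at least 10 (median 0.49). Both inhibitors among them were higher, and Cdkn3 differed by -0.03. Cdkn2d (p19), which acts on Cdk4 and Cdk6, was at 389 and 362 normalized reads in high MMP and at 199 and 226 in low MMP libraries, a log2 difference of 0.82 (SE 0.12, DESeq2 adjusted p = 0.00916). Cdkn2c (p18), of the same family, was at 2201 and 2109.6 against 1526 and 1541, a log2 difference of 0.49 (SE 0.07, DESeq2 adjusted p = 0.0399). Cdkn1c had 0 to 5 reads per library, and Cdkn2a and Cdkn2b were not among the genes of the table.

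The checkpoint kinases upstream of the switch were split into 2 higher and 2 lower (median -0.06), with no DESeq2 call. Chek1, which phosphorylates CDC25 proteins after replication stress, was at 2726 and 2586 normalized reads in high MMP and at 4038 and 3621 in low MMP libraries (log2 difference -0.53, SE 0.10), and Atm differed by -0.13. All 7 genes of 14-3-3 proteins, which hold phosphorylated CDC25 in the cytoplasm, were higher (median 0.11), by less than 0.20 in all but Sfn. The groups did not overlap for 3 of the 7, where 13.5% of all genes were higher without overlap. Sfn (14-3-3 sigma) was at 2686 and 1905 against 1282 and 1308, a log2 difference of 0.80 (SE 0.19, DESeq2 adjusted p = 0.000850), and Ywhag differed by 0.19.

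Of the ubiquitin ligase subunits that turn over these proteins, 4 were higher and 2 lower (median 0.07). Fzr1 (Cdh1), which directs the anaphase-promoting complex to Plk1 and Cdc25a, was at 2081 and 2319 normalized reads in high MMP and at 1095 and 1344 in low MMP libraries (log2 difference 0.86, SE 0.14, DESeq2 adjusted p = 3.36e-05), and Skp2, which directs p27 to degradation, differed by -0.12. Of p53 and its targets other than Cdkn1a, 9 were higher and 5 lower (median 0.03), and DESeq2 called none. Btg2 was at 436 and 275 against 131 and 287, with overlapping groups (log2 difference 0.84, SE 0.46), and Trp53inp1 differed by -0.64 (SE 0.21).

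**Figure D5:**
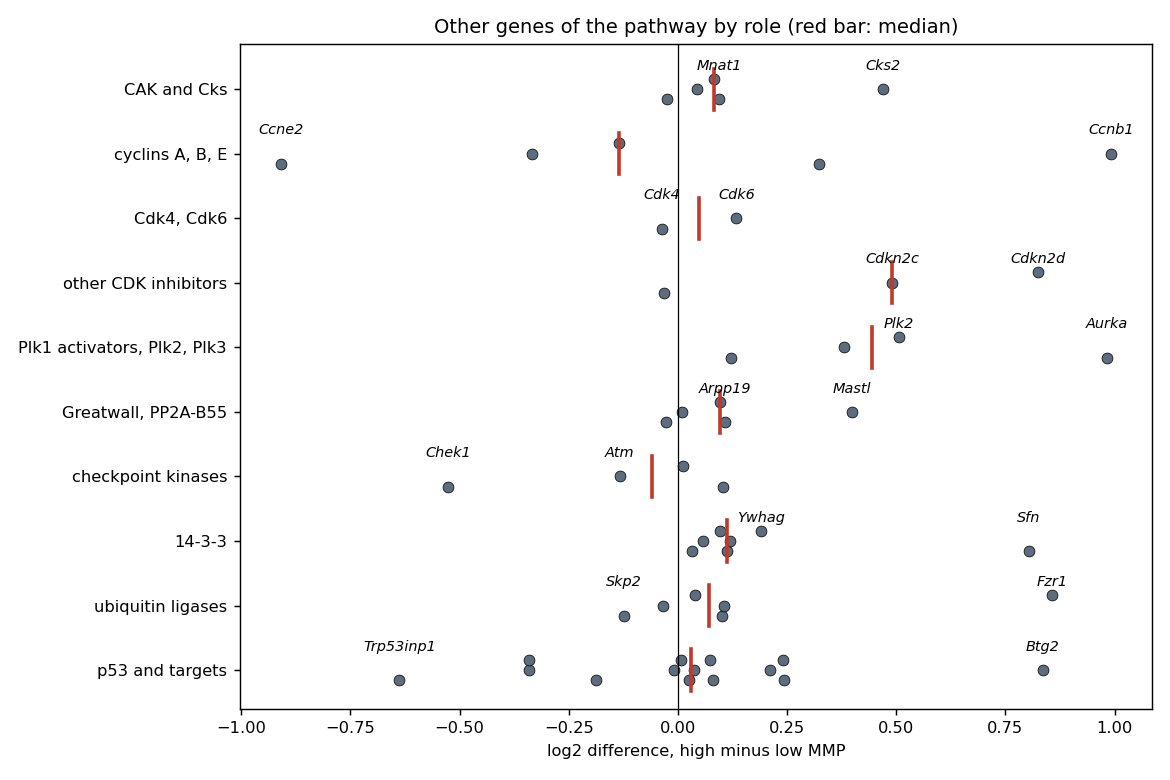
Log2 difference, high minus low MMP, of 55 other pathway genes grouped by role, with a red bar at the median of each list and the 2 genes with the largest difference named. Most genes lie within 0.25 of 0, while Ccnb1, Aurka, Fzr1, Btg2, Cdkn2d and Sfn lie above 0.75 and Ccne2, Trp53inp1 and Chek1 below -0.50.

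Likeness was measured as the Euclidean distance between the centred log2 values of 2 genes over the 4 libraries, among the 9999 genes whose mean reached 100. With only 4 libraries, many genes can lie close by, and these neighbours are a description. Nearest to Cdk1 were Aurkb, the mitotic kinase Aurora B (distance 0.120), the tubulin gene Tuba1c (0.125) and Cdkn2d (0.137). Aurkb was at 2885 and 2829 normalized reads in high MMP and at 1435 and 1681 in low MMP libraries. Its second low MMP library was above the first, as for Cdk1, and picking neighbours by distance favours such likeness. Poc5 (0.0633) and Stk17b (0.0658) were among the nearest to Plk1. Wee1 lay nearest to Tmem186 (0.0497), Siah1b (0.0507) and Mllt11 (0.0516), and Cdkn1a to Gsto1 (0.0333), Scaper (0.0416) and Ptk2b (0.0505). None of the other 9 members was among the nearest 3 of these 4 genes.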

How the data were processed

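RNA was measured in 4 samples of sorted 4T1 cells, and the titles placed 2 in each MMP group. RNA of 100000 sorted cells per sample was isolated, and 200 ng entered stranded mRNA libraries that were sequenced to 75 nt. The authors aligned reads to the GRCm38/mm10 transcriptome with STAR and quantified genes (the submitters' processing notes also name HTSeq). They scaled each library to its total and kept genes expressed in 2 or more of the 4 samples. The deposited table thus held a library-size normalized signal for every gene, with column totals of 20000000 apart from rounding. Tool versions, the annotation release and how reads matching several genes were counted are not given in the sources used here. In a column all values were multiples of 1 step, and division by it gave whole reads for 100.0% of values (tolerance 0.01 read).

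The log2(value + 1) of each gene was fitted in limma 3.58.1 (R 4.3.3; eBayes with trend, two-sided, group as the only factor), adjusted by Benjamini-Hochberg over 20197 genes with 0.05 as the threshold. The difference of a low gene is understated on this scale. edgeR 4.0.16 and DESeq2 1.42.0 were run on the recovered reads, and scripts were tested on simulated data. Other alternatives were pseudocounts, filters, scalings, the variance model, a replicate block and leaving out each library. Gene positions and exon lengths came from GENCODE M21 (19993 of 20197 identifiers matched) and promoters from RefSeq. 0 columns belonged to no sample. The members and lists were chosen with earlier results of these data known. Named are all members, in each role list the 2 genes that reached a mean of 10 and differed most in absolute terms, and the 3 nearest genes, with a mean of at least 100, of Cdk1, Plk1, Wee1 and Cdkn1a, of which 1 is not reported here. Ccna2, Ccnb2, Ccne1, Cdkn3, Ppp2r2a and Ppp2r2d were named outside this rule, after their values were seen.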

Additional observations from a re-analysis of the deposited data

How the results depend on the processing

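No member reversed its direction under any of 17 alternatives each (170 values, 0 reversed). Many of these could not have reversed it. Filters, the variance model and blocks leave limma's estimate itself unchanged. Where the groups do not overlap, leaving out a library cannot change the sign. The log2 difference ranged from 0.87 to 1.17 for Cdc25b, 0.70 to 1.06 for Cdk1 and 0.60 to 0.67 for Plk1. It ranged from -0.61 to -0.41 for Cdk2, -0.49 to -0.26 for Cdc25a and 0.20 to 0.34 for Cdc25c. Pkmyt1 ranged from -0.58 to -0.15, Wee1 from 0.05 to 0.32 and Cdkn1a from 0.02 to 0.32. The count of genes called by limma stayed at 0 for all genes, members and pathway genes under other pseudocounts, filters, scalings and the variance model with no trend. It was 0 to 0 when each library was left out in turn. The smallest limma adjusted p of a member in these fits was 0.0835. The 6 members marked by limma at an unadjusted p under 0.05 fell to 4 with no trend. With the replicate number as a block they also fell to 4. Cdc25a and Cdc25c were not marked in either fit. DESeq2 on the recovered reads called 118 genes (81 higher, 37 lower), with 3 members and 8 pathway genes, while edgeR without a block called 0. The cause of the difference between the tools was not tested. Under median-of-ratios scaling or quantile normalization all 10 members had groups that did not overlap. The share of all genes without overlap was not counted under these scalings. The member that changed was Cdkn1a, which was at 524 in high MMP replicate 1 and 529 in low MMP replicate 1 before rescaling.

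The labelled numbers were not taken as pairs, since deviations of same-numbered samples correlated at -0.571 over 9999 genes whose mean reached 100, and whether the numbers are crossed is not known. With the replicate number as a block, limma called 0 genes, 0 members and 0 pathway genes, and edgeR called 106 genes (63 higher, 43 lower), 2 members (Cdk1 and Cdc25b) and 7 pathway genes. A block of crossed numbers, chosen after seeing the data, gave 0 calls in limma and 733 genes, 4 members and 14 pathway genes in edgeR. With 2 samples per group, a difference as small as that of Wee1, Cdkn1a or Cdkn1b could not be told from 0.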
